A study of Rattus norvegicus with 12 samples.

Results

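Poly(A) RNA from the prefrontal cortex of rats in early adolescence was compared between 4 animals with postnatal oxycodone exposure (PNO 1 to 4) and 4 saline controls (Saline 1 to 4). These are 8 of the 12 libraries of the study, chosen by their titles, with 1 library per animal, and 14170 of the 22431 genes in the deposited table were tested, those with a mean FPKM (fragments scaled to gene length and depth) of at least 0.5 over the 12 libraries. The comparison asks how the expression profile of this tissue differs in early adolescence after postnatal exposure. All animals are labelled wild type. The labels give oxycodone at 15 mg/kg by oral gavage in 2 windows, before pregnancy or after it until postnatal day 21. They call the PNO animals postnatally exposed without tying a window to a group, and do not say whether dam or pup was dosed. The controls are named by saline and labelled as control, with no further detail. The other 4 libraries, from animals with in utero exposure, entered the model to share its estimate of spread, and they also shape the region adjustment described below. Both groups are made of 2 pairs of littermates from 2 dams, and which animals are littermates is not stated. P-values measure the spread between these animals, and may be too small. The sex of the animals is not given in the labels.

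Oxycodone is an opioid agonist that acts mainly at the mu opioid receptor. Opioid receptors couple to inhibitory G proteins, which lower adenylate cyclase activity, open inwardly rectifying potassium channels and close presynaptic calcium channels, so that the cells that carry them release less transmitter. In the prefrontal cortex these receptors lie largely on inhibitory interneurons and on incoming axons, and the early postnatal weeks are a time of synapse formation, interneuron maturation and gliogenesis there. In bulk tissue, fewer cells of a type and less RNA per cell cannot be told apart.

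Total counts of the 8 libraries ran from 57887813 to 60672246. Mitochondrially encoded genes took 15.5%, 17.7%, 15.5% and 16.9% of counts in PNO 1 to 4 and 18.9%, 17%, 17.9% and 18.3% in Saline 1 to 4. Pearson's r of log2 CPM (CPM, counts scaled to library size with TMM factors) between libraries of a group lay between 0.972 and 0.981 across the tested genes. Transcription factors of the cortical layers, the defining genes of the labelled tissue, had a mean log2 CPM of 4.84 to 5.15 in the PNO libraries and 4.84 to 4.93 in the controls.

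Libraries differed in the RNA of neighbouring regions. The mean log2 CPM of 16 striatal markers was 6.65 in PNO 2 and 4.94 in Saline 2, against 3.97 to 4.09 in the other 6 libraries. The adenosine receptor gene Adora2a, a marker of striatal projection neurons, measured 6.07, 129, 8.22 and 7.22 CPM in PNO 1 to 4 and 5.99, 34.4, 10.3 and 9.53 CPM in the controls. The mean of 9 olfactory bulb markers was 4.41 in PNO 1, 4.23 in PNO 3 and 4.57 in PNO 4, against 2.00 in PNO 2 and 2.15 to 2.23 in the controls. Eomes, which mitral and tufted cells of the bulb express, measured 6.56, 0.468, 5.82 and 7.78 CPM in PNO 1 to 4 and 0.159 to 0.468 CPM in the controls. Thus each PNO library was high in markers of 1 of these regions, and Saline 2 was the control library that was. Adora2a, Drd2, Penk and Pdyn are among the 16 striatal markers, and Eomes, Tbx21, Cdhr1 and Calb2 among the 9 of the bulb. Their agreement with those means is therefore partly built in. No control library had raised bulb markers, so exposure and bulb RNA cannot be told apart among PNO 1, 3 and 4. Most gene values and list medians below are therefore also given from a model with both marker means as covariates (12 libraries), called adjusted for region here. The in utero libraries also set the fitted effect of each marker mean in that model. Among them, library 3 had a bulb mean of 4.92, and libraries 1 and 2 had striatal means of 5.16 and 6.19. Some are also given without the libraries with raised striatal markers (3 PNO and 3 controls left) or without those with raised bulb markers. The last leaves PNO 2 as the only exposed library, which is then assumed to vary like the other groups.

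**Figure D1:**
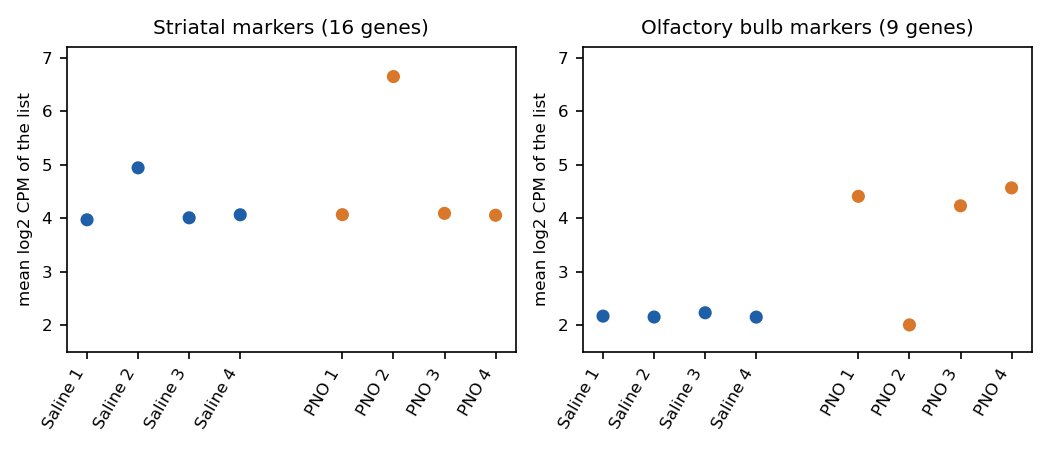
Mean log2 CPM of the striatal (left) and olfactory bulb (right) marker lists in each Saline (blue) and PNO (orange) library, 1 point per library. PNO 2 at 6.65 and Saline 2 at 4.94 stand above the others on the left, and PNO 1, 3 and 4 at 4.23 to 4.57 stand above all others on the right.

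No gene passed an adjusted p of 0.05 in the edgeR quasi-likelihood test on the 12 libraries (0 of 14170, or 0%), and the smallest Benjamini-Hochberg adjusted p was 0.305, which 146 genes shared. At an unadjusted p under 0.05, 966 genes (6.82%) were higher and 598 (4.22%) lower in PNO. The groups did not overlap, with every PNO library above every control, in 733 genes (5.17%), and every PNO library was below every control in 661 (4.66%). Over all tested genes the median log2 fold change was 0.01 and 51.2% were positive, and these shares are the background for each gene group below. Other tools called more genes. A fit of the 8 libraries alone called 11 genes (0.0776%), all higher in PNO, and DESeq2 on the 12 libraries called 117 (0.826%), 94 higher (0.663%) and 23 lower (0.162%). Limma called 32 genes (0.226%) on counts with sample weights, 29 higher (0.205%) and 3 lower (0.0212%), and 1 gene (0.00706%), higher in PNO, on log2(FPKM + 0.5). Adjusted for region, edgeR called 0 genes, with 306 higher and 225 lower at an unadjusted p under 0.05, and DESeq2 called 10 (0.0706%), 7 higher (0.0494%) and 3 lower (0.0212%), with 4.21% at an unadjusted p under 0.05. Of those 10, 3 were among the 117. In what follows, values are CPM, fold changes are log2 with the standard error (SE) of the edgeR fit, and p-values are unadjusted edgeR values unless called adjusted. Higher and lower describe the measured means.

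Among the 15 genes with the smallest p in the higher direction, several encode large nuclear or signalling proteins whose PNO and control values did not overlap. Srrm2, a scaffold of nuclear speckles and the spliceosome, measured 610, 582, 517 and 564 CPM in PNO 1 to 4 and 440, 393, 422 and 411 CPM in Saline 1 to 4. All 4 exposed libraries stood above the highest control, a log2 fold change of 0.45 ± 0.08 (SE), with a DESeq2 adjusted p of 0.00112. Chd8, a chromatin remodeller of the CHD family and a known autism gene, measured 75.3, 72.6, 67.7 and 71.4 CPM against 54.1, 55.6, 54.5 and 59.1 CPM, 1.29-fold. Adjusted for region, the log2 fold change of Chd8 was 0.30 beside 0.36 unadjusted, and that of Srrm2 was 0.31. Tiam1, a Rac activator that shapes dendritic spines, measured 52.2, 63.7, 56.9 and 60.9 CPM against 43.2, 36.8, 40.6 and 33.8 CPM. The log2 fold change of Tiam1 was 0.60 ± 0.12, and 0.37 adjusted for region. Zfp141, a zinc finger gene, was 2.37-fold higher (8.77 ± 1.77 CPM against 3.71 ± 1.12, SD, n = 4 each) with a log2 fold change of 1.24, and 1.02 adjusted for region. Elac1, a tRNA-processing nuclease, measured 4.13, 5.78, 4.51 and 4.88 CPM against 2.72 to 2.82 CPM, and its log2 fold change of 0.80 was 0.92 adjusted for region. Ncoa3, a coactivator of nuclear receptors, Bahcc1, a chromatin reader, and Cul7, a cullin ubiquitin ligase scaffold, were 1.74-, 1.46- and 1.3-fold higher, each without overlap of the groups. Their log2 fold changes of 0.80, 0.55 and 0.38 were 0.48, 0.38 and 0.25 adjusted for region. All 15 kept their direction adjusted for region, 7 of them with a value no more than 1.5 times smaller and 5 at p under 0.05. The 15 were chosen in these same libraries, so a kept direction is not independent support. Of all 966 genes higher at p under 0.05, 83.7% kept theirs and 91 had p under 0.05.

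The 15 genes with the smallest p in the lower direction included several enzymes and signalling genes. Ddc, aromatic amino acid decarboxylase, which makes dopamine and serotonin from their precursors, measured 2.98, 3.99, 2.45 and 3.66 CPM in PNO 1 to 4 and 6.16, 5.04, 5.48 and 5.06 CPM in the controls. The groups did not overlap, and the log2 fold change of −0.73 ± 0.18 was −0.97 adjusted for region. Ifrd1, a transcriptional coregulator, measured 35.8 to 39.5 CPM in PNO and 46.3 to 51.8 CPM in the controls, a log2 fold change of −0.37 (−0.40 adjusted for region). Nit1, an amidase, was at 28.7 ± 4.31 CPM against 39.9 ± 3.64 (SD, n = 4 each), with −0.47 unadjusted and −0.60 adjusted for region. Cbr4, a mitochondrial carbonyl reductase, Ufsp2, a protease of the ufmylation pathway, Rheb, the GTPase that activates mTORC1, and Pdp1, a pyruvate dehydrogenase phosphatase, had log2 fold changes of −0.48, −0.27, −0.33 and −0.40, and of −0.55, −0.25, −0.26 and −0.22 adjusted for region. None of these overlapped between the groups. Cldn10, a claudin that astrocytes express, measured 14.9 to 20 CPM against 22.2 to 25.4 CPM, and its log2 fold change of −0.47 was −0.15 adjusted for region. All 15 kept their direction adjusted for region, 12 with a value no more than 1.5 times smaller and 9 at p under 0.05. These too were chosen in the same libraries. Of all 598 genes lower at p under 0.05, 92.3% kept their direction and 62 had p under 0.05.

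**Figure D2:**
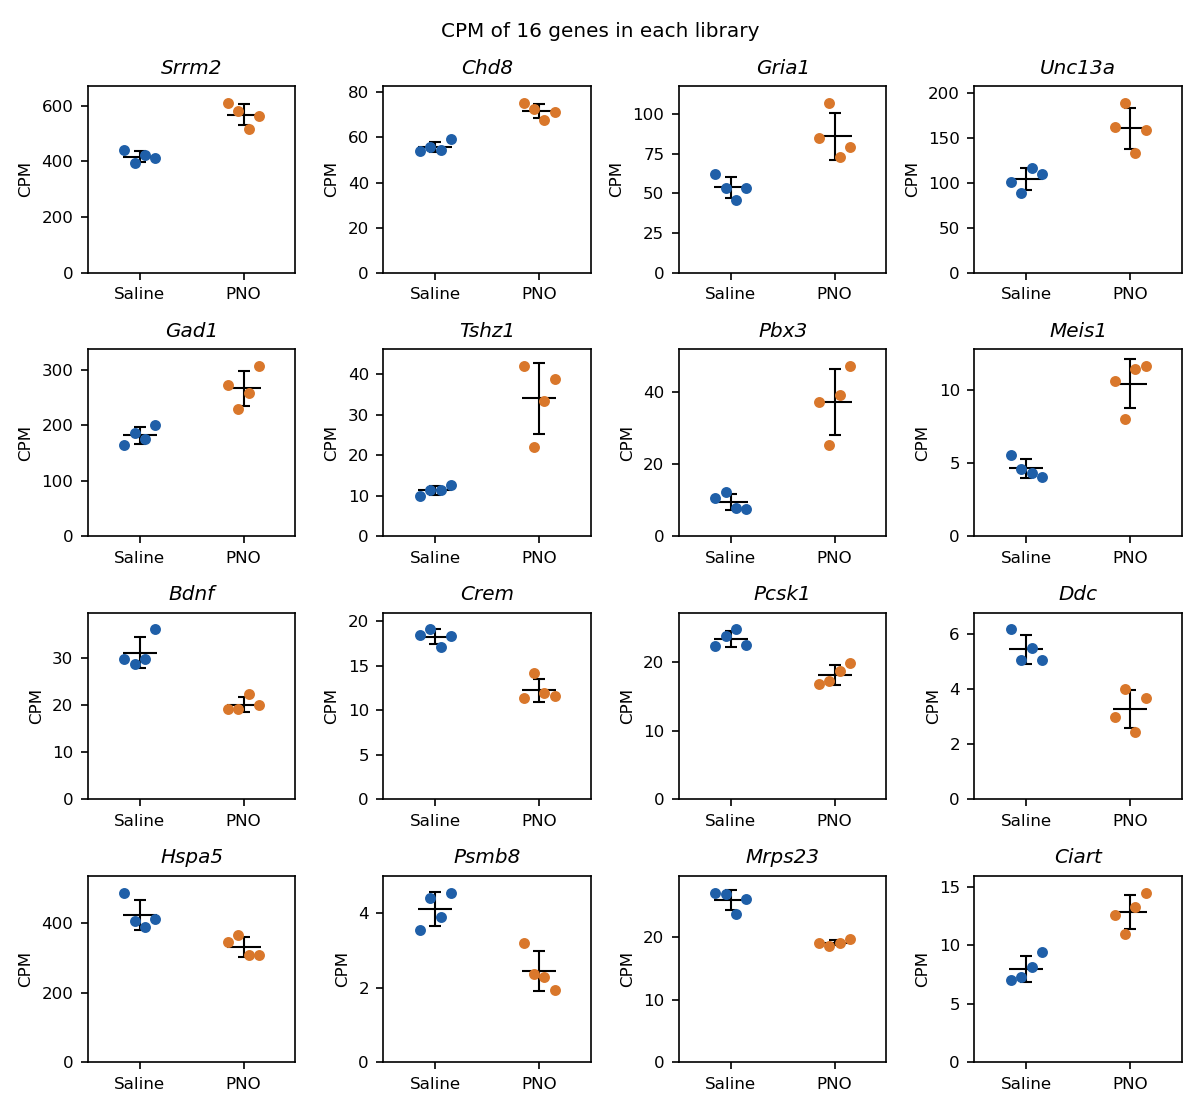
CPM of 16 genes in the 4 Saline (blue) and 4 PNO (orange) libraries, 1 point per library, with the mean (bar) and SD (whiskers). No PNO point overlaps a control point in these 16 genes, among them Tshz1 at 21.9 to 42 CPM against 9.88 to 12.6 and Crem at 11.4 to 14.2 CPM against 17.1 to 19.1.

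The 11 genes that the fit of 8 libraries called were Tshz1, Pbx3, Meis1, Meis2, Ptprm, Cdh13, Dpp6, Dclk2, Fam184a, Kcnf1 and Chrnb2. The first 4 are homeobox and zinc finger transcription factors of the ventral forebrain, where interneurons and olfactory bulb neurons arise. Tshz1, which olfactory bulb interneurons need to mature, measured 42, 21.9, 33.4 and 38.9 CPM in PNO 1 to 4 and 9.88, 11.4, 11.4 and 12.6 CPM in Saline 1 to 4 (edgeR adjusted p = 0.0295 in the 8 libraries). Pbx3 measured 37.2, 25.2, 39.2 and 47.1 CPM against 10.4, 12.2, 7.83 and 7.55 CPM. Meis1 measured 10.6, 7.96, 11.4 and 11.7 CPM against 5.56, 4.59, 4.32 and 4.02 CPM. In all 3, the lowest exposed library was PNO 2, the one without raised bulb markers. Ptprm, a receptor phosphatase of cell adhesion, Cdh13, a cadherin anchored to the membrane surface, and Dpp6, an auxiliary subunit of Kv4 potassium channels, were 1.65-, 1.35- and 1.5-fold higher. Kcnf1, a modulatory potassium channel subunit, measured 63.8 to 68.3 CPM in PNO and 32.7 to 44.7 CPM in the controls, and Chrnb2, the beta2 subunit of nicotinic receptors, 25.2 to 32.4 CPM against 14.9 to 17.9 CPM. Adjusted for region, all 11 stayed positive, with a median log2 fold change of 0.10, and every value was more than 1.5 times smaller, with 0 of 11 at p under 0.05. Exposure and region RNA cannot be told apart for these genes in PNO 1, 3 and 4.

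Genes for GABA handling and transcription factors of forebrain interneurons were mostly higher in PNO before adjustment for region, and markers of interneuron subtypes were not. Of 8 genes for GABA synthesis, transport and breakdown, 6 were positive, all 6 with an unadjusted p under 0.05, and the median log2 fold change was 0.60 beside 0.01 over all genes. Gad1, which makes GABA, measured 273, 230, 259 and 307 CPM in PNO 1 to 4 and 164, 187, 176 and 201 CPM in the controls, without overlap and 1.47-fold higher. Abat, which breaks GABA down, measured 46.5, 66.3, 41.7 and 38.1 CPM against 26 to 34.3 CPM, again without overlap. Slc32a1, the vesicular GABA transporter, measured 93.5, 142, 116 and 107 CPM against 49.9, 61.8, 97.7 and 78.4 CPM, where PNO 1 lay below Saline 3. The GABA transporter gene Slc6a11 was at 38.9 ± 5.18 CPM against 22 ± 4.88 (SD, n = 4 each). Of 17 interneuron transcription factors of the ventral forebrain, 14 were positive, 9 with p under 0.05, 6 without overlap, and the median was 0.53. Dlx5 measured 11.8, 12.3, 14.4 and 13.9 CPM against 3.85, 6.19, 8.38 and 4.27 CPM, and Dlx6 5.88, 9.61, 6.29 and 6.14 CPM against 2.27, 4.83, 3.47 and 3.49 CPM. The medians of these 2 lists adjusted for region were 0.07 and −0.03, and no member had p under 0.05. For Gad1, Abat and Dlx6 the adjusted log2 fold changes were 0.20, 0.21 and 0.52, and for Slc32a1, Slc6a11 and Dlx5 they turned to −0.07, −0.48 and −0.14.

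Markers of the cortical interneuron subtypes were divided in direction. Of 13 measured, 6 were positive and 7 negative. At p under 0.05, 3 (23.1%) were higher and 1 (7.69%) lower, beside 6.82% and 4.22% over all genes. Nos1, neuronal nitric oxide synthase, measured 6.68, 7.47, 6.86 and 7.66 CPM in PNO and 3.21, 1.63, 4.63 and 2.45 CPM in the controls. Sst, the somatostatin gene, measured 174, 169, 195 and 154 CPM against 184, 230, 245 and 215 CPM, a log2 fold change of −0.34 with PNO 3 above Saline 1. Adjusted for region, Nos1 was at 0.38 in place of 1.26 and Sst at −0.09. Calb2, which marks calretinin cells and also bulb interneurons, measured 71.7, 17.5, 73.3 and 61.4 CPM against 19.4 to 20.8 CPM. PNO 2 lay below every control there. Calb2 was high in the 3 libraries with raised bulb markers, a list of which it is a member. GABA-A receptor subunits, the chloride channels that respond to GABA, were positive in 10 of 11 with a median of 0.22 (0.08 adjusted for region), and none had p under 0.05.

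Excitatory receptor genes were mostly positive, with few past the unadjusted threshold. Of 9 AMPA and kainate receptor subunits, 8 were positive (median 0.20, and 0.19 adjusted for region) and 2 had p under 0.05. Gria1, the AMPA receptor subunit recruited in synaptic potentiation, measured 84.6, 107, 73.2 and 79.1 CPM in PNO 1 to 4 and 62.4, 53.1, 46.1 and 53.7 CPM in Saline 1 to 4. All exposed libraries stood above all controls, with a log2 fold change of 0.68 ± 0.14 and 0.43 adjusted for region. The kainate subunit gene Grik1 measured 10.6 to 14.4 CPM against 8.57 to 9.88 CPM, and its log2 fold change of 0.39 was 0.57 adjusted for region. All 7 NMDA receptor subunits were positive, with a median of 0.14, and 5 were adjusted for region, with a median of 0.29. Unadjusted, only Grin3a of these had p under 0.05, at 5.97, 4.54, 1.86 and 3.04 CPM against 3.49, 1.36, 2.13 and 1.31 CPM with overlapping groups. Adjusted for region, 1 NMDA subunit was lower at p under 0.05 and none was higher. Of 7 metabotropic glutamate receptors, 5 were positive and 2 had p under 0.05, among them Grm4 at 50.8 ± 2.67 CPM against 34.6 ± 5.21 (SD, n = 4 each). Adjusted for region, the median of that list was −0.11, as was the value of Grm4. Glutamate transporters and the glutamine cycle divided 7 to 6, with a median of 0.03.

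Presynaptic and adhesion genes were also mostly positive. Of 25 vesicle priming and fusion genes 18 were positive (median 0.23), and 12 adjusted for region (median 0.00). Unadjusted, 3 (12%) were higher at p under 0.05, beside 6.82% over all genes. Unc13a, the Munc13 protein that primes vesicles, measured 162, 189, 133 and 159 CPM in PNO 1 to 4 and 101, 88.6, 117 and 110 CPM in the controls, a log2 fold change of 0.63 ± 0.14 that was 0.48 adjusted for region. Bsn, the active zone scaffold bassoon, measured 53.6, 72.8, 39.5 and 52.1 CPM against 32.5, 20, 42 and 29.6 CPM, where PNO 3 lay below Saline 3, and its log2 fold change of 0.81 was 0.47 adjusted for region. Synpr, a vesicle membrane protein of the synaptophysin family, was 1.55-fold higher without overlap, and −0.30 adjusted for region. Of 17 neurexins, neuroligins and cerebellins 12 were positive and 3 (17.6%) were higher at p under 0.05. Nlgn3, a postsynaptic neuroligin, measured 64.9 to 80.5 CPM against 42.5 to 57.3 CPM, and Cbln1, a cerebellin that links neurexins to glutamate receptors, 11.9 to 14.3 CPM against 5.29 to 8.23 CPM. Nrxn3, a neurexin, had a log2 fold change of 0.54 with overlapping groups. Adjusted for region, Nlgn3, Cbln1 and Nrxn3 were at 0.12, 0.14 and 0.12 in place of 0.50, 0.81 and 0.54, and the list median was 0.01 in place of 0.27. Of 24 postsynaptic density scaffolds 19 were positive, 5 (20.8%) higher and 1 (4.17%) lower at p under 0.05. Sipa1l1, a spine-associated GTPase regulator, measured 165, 187, 160 and 167 CPM against 113, 103, 112 and 133 CPM, and Lrrc7, densin, was 1.34-fold higher, both without overlap. Adjusted for region, Sipa1l1 was at 0.29 in place of 0.56, Lrrc7 at 0.16 in place of 0.42, and the list median at 0.05 in place of 0.13.

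Voltage-gated calcium channels, which couple depolarisation to transmitter release and gene expression, were mostly higher. Of 12 calcium and sodium channel alpha subunits 11 were positive, 5 had p under 0.05, the same number did not overlap between the groups, and the median was 0.32. Cacna1c, an L-type channel gene linked to psychiatric disease, measured 23.8, 24.3, 20.9 and 23.3 CPM in PNO and 16.7, 12.9, 17.5 and 13.3 CPM in the controls. Cacna1d, the other neuronal L-type gene, was at 44 ± 5.12 CPM against 27.8 ± 2.48, and the T-type genes Cacna1h and Cacna1i at 80 ± 6.98 against 52.4 ± 5.51 and 72.7 ± 11.8 against 43.1 ± 11 (SD, n = 4 each). Adjusted for region, the log2 fold changes of Cacna1c, Cacna1h, Cacna1i and Cacna1d were 0.35, 0.17, 0.17 and −0.07, and the list median was 0.12 with no member at p under 0.05. Of 31 potassium channel alpha subunits 25 were positive (median 0.17). At p under 0.05, 4 (12.9%) were higher and 1 (3.23%) lower, beside 6.82% and 4.22% over all genes. Kcnh6, an ERG channel gene, measured 4.94 to 8.66 CPM against 2.63 to 3.58 CPM. Adjusted for region, that list's median was 0.03, and Kcnh6 was at 0.48 in place of 1.14.

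The opioid peptides and receptors themselves did not share a direction. Of the 8 opioid genes in the table, 6 passed the expression filter, and 4 of these were positive. Oprm1, the mu receptor that oxycodone binds, had 9, 14, 4 and 5 counts in PNO 1 to 4 and 4, 0, 0 and 2 counts in the controls, 32 against 6 in all, and was not tested at this depth. Oprk1, the kappa receptor, was also below the filter, with 94, 363, 70 and 31 counts against 122, 178, 40 and 63, and was highest in the 2 libraries with raised striatal markers. Penk, the enkephalin precursor, measured 95.4, 381, 94.6 and 95.1 CPM in PNO and 76, 145, 65.2 and 73 CPM in the controls, and Pdyn, the dynorphin precursor, 19.8, 79.2, 21 and 21.6 CPM against 24.2, 31.8, 26.1 and 22.1 CPM. Both peak in PNO 2 and, among controls, in Saline 2. Both belong to the striatal marker list by which these libraries were called raised, so that agreement is partly built in. Leaving out those 2 libraries and the in utero ones with raised striatal markers, the log2 fold change of Penk was 0.41 in place of 0.89, and that of Pdyn −0.22 in place of 0.44. Pomc, the endorphin precursor, measured 1.15, 11.5, 7.08 and 1.95 CPM against 3.24, 1.41, 1.86 and 1.57 CPM, high in PNO 2 and PNO 3, within the range of the controls in PNO 4 and below it in PNO 1. Oprl1, the nociceptin receptor, Pnoc, its peptide, and Oprd1, the delta receptor, had log2 fold changes of −0.08, −0.17 and 0.23 with overlapping groups.

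A few genes that act downstream of opioid receptors were higher without overlap. Of 21 inhibitory G protein, arrestin and potassium channel transducer genes, 13 were positive, with a median of 0.11. At p under 0.05, 3 (14.3%) were higher and without overlap 2 (9.52%), beside 6.82% and 5.17% over all genes. Adjusted for region, 7 were positive with a median of −0.05 and no member at p under 0.05. Arrb1, beta-arrestin 1, which desensitises opioid receptors, measured 14, 21.6, 12.5 and 15.8 CPM in PNO 1 to 4 and 10.5, 6.82, 9.47 and 7.25 CPM in Saline 1 to 4. The groups did not overlap, and the log2 fold change of 0.91 ± 0.28 was 0.28 adjusted for region. Gng4, a G protein gamma subunit, measured 16.3, 8.19, 13.1 and 16.8 CPM against 6.9, 3.78, 4.46 and 4.66 CPM, and its log2 fold change of 1.46 was −0.62 adjusted for region. Gnb1, a G protein beta subunit, measured 556, 264, 225 and 542 CPM against 258, 202, 190 and 170 CPM, with PNO 1 and PNO 4 high and PNO 3 within the controls' range. The 18 RGS regulators of G protein signalling were divided, 9 positive and 9 negative, with a median of −0.003 and 2 (11.1%) higher at p under 0.05. Adjusted for region, 7 of them were positive and 1 was lower at p under 0.05. Rgs8, which speeds the shutoff of inhibitory G proteins, measured 29.4, 67.9, 27.3 and 28.5 CPM against 19.3 to 22.2 CPM, without overlap and highest in PNO 2. Adjusted for region, Gnb1 was at 0.65 in place of 0.95 and Rgs8 at 0.45 in place of 0.87. The morphine addiction pathway as the table's KEGG column assigns it, a list added after the table was seen, had 76 tested genes. Of these 57 were positive, with a median of 0.16. At p under 0.05, 6 (7.89%) were higher and 1 (1.32%) lower, beside 6.82% and 4.22% over all genes. Without overlap, 4 (5.26%) were higher and 2 (2.63%) lower, beside 5.17% and 4.66%, so the shares of higher genes lay near those of all genes. Adjusted for region, 41 were positive with a median of 0.02.

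Among receptors of other modulators, 13 of 17 dopamine, serotonin and adrenergic receptor genes and 8 of 9 acetylcholine receptor genes were positive, and 6 and 7 of them adjusted for region. Drd2, the D2 dopamine receptor, measured 9.37, 75.8, 5.22 and 6.75 CPM against 4.56, 15.9, 4.95 and 4.92 CPM. It followed the striatal marker list, of which it is a member. Adra1a, the alpha-1A adrenergic receptor, measured 2.31 to 3.41 CPM against 1.91 to 2.22 CPM, and its log2 fold change of 0.55 was 0.82 adjusted for region.

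Effector genes that neuronal activity drives were mostly lower in PNO. Of 16 activity-regulated effectors and feedback regulators, 13 were negative, 5 of them with p under 0.05, 3 without overlap, and the median was −0.23, with 12 negative, 1 of them at p under 0.05, and a median of −0.14 adjusted for region. Bdnf, the neurotrophin whose transcription follows activity, measured 19.1, 19.1, 22.3 and 20 CPM in PNO 1 to 4 and 29.9, 28.7, 29.9 and 36.1 CPM in Saline 1 to 4. The groups lay apart, and the log2 fold change was −0.63 ± 0.17, or −0.11 adjusted for region. Pcsk1, the prohormone convertase that processes neuropeptide precursors, measured 16.8, 17.2, 18.7 and 19.9 CPM against 22.4, 23.8, 24.8 and 22.6 CPM, with −0.36 unadjusted and −0.37 adjusted for region. Crem, which encodes activator and repressor forms that bind cAMP response elements, measured 11.4, 14.2, 11.9 and 11.6 CPM against 18.5, 19.1, 17.1 and 18.4 CPM, without overlap, with −0.57 unadjusted and −0.22 adjusted for region. Nptx2, a pentraxin that clusters AMPA receptors, and Vgf, a neuropeptide precursor, had log2 fold changes of −0.40 and −0.34 with overlapping groups, and −0.40 and −0.16 adjusted for region. Of 18 immediate early genes 13 were negative, with a median of −0.10, none was lower at p under 0.05, and Jun was higher at 79.2 ± 6.11 CPM against 70.2 ± 3.24 (SD, n = 4 each). By DESeq2, Bdnf (adjusted p = 0.0448), Pcsk1 (adjusted p = 0.0482) and Crem (adjusted p = 0.0176) fell below the threshold, and by edgeR on the 12 libraries they did not.

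Chromatin regulators were mostly higher. All 9 CHD remodellers were positive, 5 with p under 0.05, and the median was 0.28. Besides Chd8, Chd4, the core ATPase of the NuRD complex, measured 196 to 216 CPM in PNO and 174 to 183 CPM in the controls, with log2 fold changes of 0.20 unadjusted and 0.24 adjusted for region. Of 17 histone lysine methyltransferases 16 were positive and 9 had p under 0.05, with a median of 0.27. Kmt2e measured 66.6, 69.2, 57.6 and 52.7 CPM against 34.8, 39.6, 44.7 and 42.5 CPM, and its log2 fold change of 0.61 was 0.10 adjusted for region. Ehmt1, which methylates histone H3 at lysine 9, measured 29.9 to 31.9 CPM against 20.2 to 26.6 CPM, and Setd2, the H3 lysine 36 methyltransferase, 48.9 to 61.2 CPM against 42.4 to 48.3 CPM. Adjusted for region, Ehmt1 was at 0.19 in place of 0.37 and Setd2 at 0.13 in place of 0.27. Of 15 DNA methylation genes 12 were positive. Dnmt1, the maintenance methyltransferase, measured 41.5 to 42.5 CPM in the 4 PNO libraries and 33.3 to 34 CPM in the 4 controls, a narrow spread in both groups, with a log2 fold change of 0.32 that was 0.03 adjusted for region. Dnmt3a, which sets new methylation in young neurons, was 1.52-fold higher, and −0.14 adjusted for region. Of 28 SR splicing proteins 20 were positive and 5 (17.9%) were higher at p under 0.05. Of 249 zinc finger genes named Zfp 186 were positive. At p under 0.05, 31 (12.45%) were higher and 2 (0.803%) lower, beside 6.82% and 4.22% over all genes. Zfp646 measured 24.4 to 25.4 CPM against 15.5 to 20.7 CPM, with 0.49 unadjusted and 0.32 adjusted for region. Adjusted for region, the medians of the CHD, methyltransferase and DNA methylation lists were 0.12, 0.06 and 0.03, with 2 CHD genes and no member of the other lists at p under 0.05. Those of the SR proteins and the Zfp genes were 0.01 and 0.05.

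Most genes for respiration, translation and protein turnover were lower before adjustment for region. Of 35 nuclear-encoded complex I subunits 34 were negative, and of 37 subunits of complexes II to V 36 were, both with a median of −0.20. At p under 0.05, 4 (11.4%) and 6 (16.2%) were lower, beside 4.22% over all genes. Without overlap, 7 (20%) and 8 (21.6%) were lower, beside 4.66%. Adjusted for region, no member of either list had p under 0.05. Atp5mc3, a c subunit of ATP synthase, measured 171, 146, 167 and 159 CPM in PNO 1 to 4 and 185, 191, 215 and 196 CPM in the controls, without overlap. Ndufa9, Ndufc2 and Cox5a, of complexes I and IV, were at 122 ± 8.14, 73.7 ± 5.28 and 121 ± 10.2 CPM against 145 ± 5.05, 91.9 ± 2.42 and 143 ± 7.98 (SD, n = 4 each). Of 13 mitochondrially encoded genes 11 were negative (median −0.17), among them Mt-nd3 at 708 to 798 CPM against 828 to 1025 CPM. Of 71 mitochondrial ribosomal protein genes 68 were negative, 14 without overlap, and Mrps23 measured 18.6 to 19.6 CPM against 23.6 to 27 CPM. Of 94 cytosolic ribosomal protein rows 78 were negative, with a median of −0.15, but only 1 was lower at p under 0.05 and 2 were higher. Of 32 constitutive proteasome subunits 30 were negative, 7 with p under 0.05 and 10 without overlap, such as Psma3 at 77.8 ± 2.63 CPM against 89.4 ± 4.95 and Psmd6 at 100.2 ± 7.06 CPM against 118 ± 5.14 (SD, n = 4 each). Adjusted for region, the medians of complex I, complexes II to V, the proteasome and the 2 ribosome lists (mitochondrial and cytosolic) were 0.03, 0.04, 0.03, 0.05 and 0.15, and that of the mitochondrially encoded genes was −0.30. Of the cytosolic ribosomal rows 76 of 94 were then positive. Mrps23 was at −0.06 in place of −0.44, Atp5mc3 at −0.21 in place of −0.29, and Ndufa9, Ndufc2, Cox5a, Psma3, Psmd6 and Mt-nd3 lay between −0.0944 and −0.0361.

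**Figure D3:**
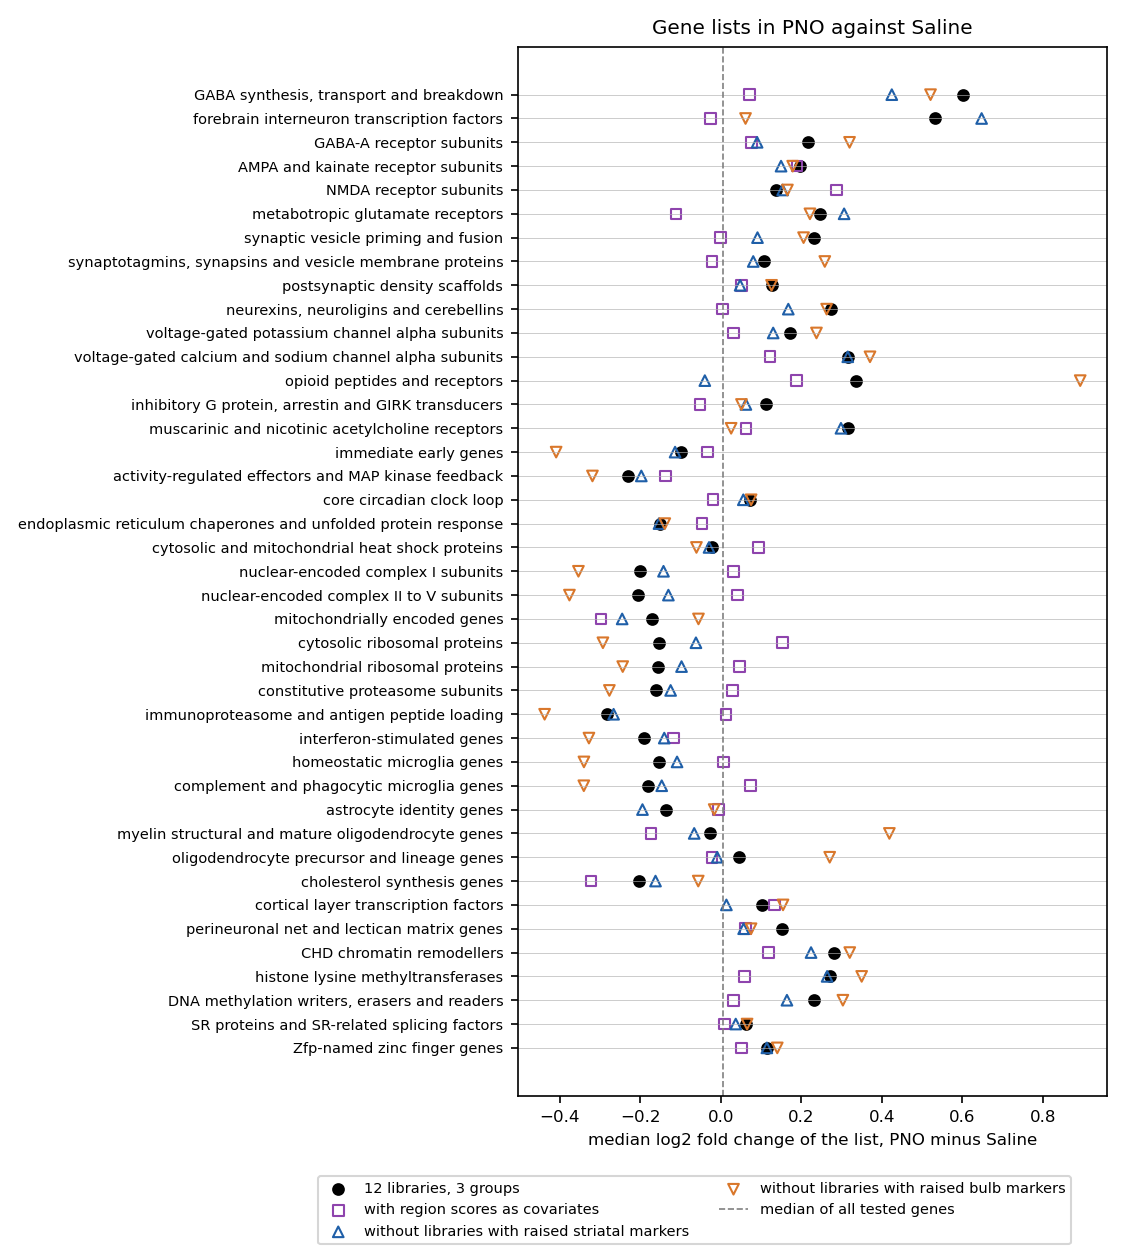
Median log2 fold change (PNO minus Saline) of 41 gene lists in the 12-library model (filled circles), with the region marker means as covariates (squares), without the libraries with raised striatal markers (upward triangles) and without those with raised bulb markers (downward triangles). The dashed line is the median of all tested genes, 0.01. Squares lie close to that line for most lists. Cholesterol synthesis at −0.32 and mitochondrially encoded genes at −0.30 lie farther below it. NMDA receptor subunits at 0.29, and AMPA and kainate subunits and opioid genes, both at 0.19, lie above it.

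The groups above differ in transcript length, and before adjustment for region log2 fold changes rose with length in the comparison as a whole. Ordered by the length the table implies, 5 groups of equal size from 14049 genes had median log2 fold changes of −0.11, −0.05, 0.01, 0.06 and 0.10 from shortest to longest. Of the shortest group 2.35% were higher and 7.33% lower at p under 0.05, and of the longest 14.5% were higher and 1.39% lower. Spearman's rho between log2 fold change and length was 0.34 across genes, which share the same 8 libraries. By library, rho of the difference from the control mean was 0.31, 0.35, 0.04 and 0.26 in PNO 1 to 4 and 0.18, −0.17, 0.04 and −0.10 in Saline 1 to 4, with PNO 3 inside the range of the controls. The median implied length was 1189 bases for complex I and 1026 for cytosolic ribosomal proteins, against 9557 for the methyltransferases and 8985 for the CHD remodellers. With the length trend removed from each library, the complex I median was −0.11, that of the proteasome −0.10, of the methyltransferases 0.19 and of the CHD remodellers 0.17. What part gene length has in these group differences was not tested further.

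**Figure D4:**
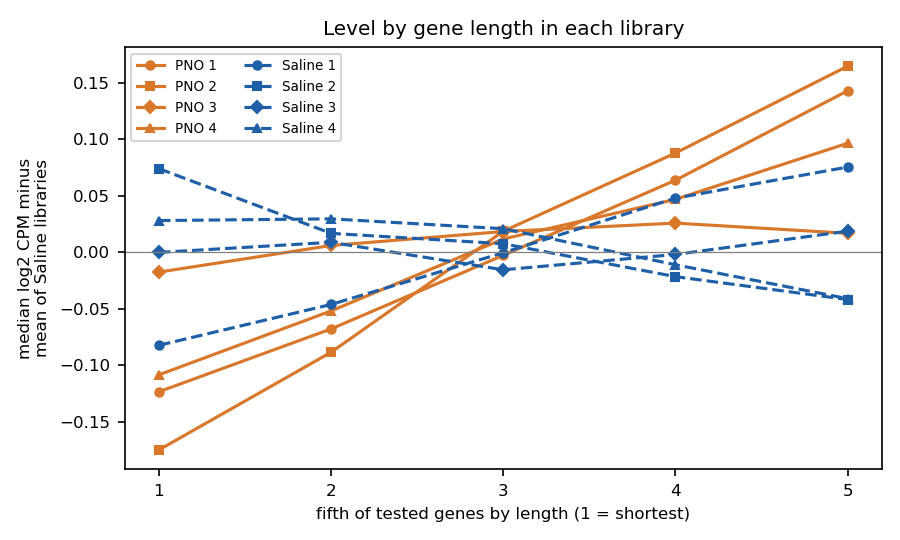
Median difference in log2 CPM from the Saline mean (for a Saline library, from the mean of the other 3) over the genes of each of 5 length groups, 1 line per library, PNO orange and Saline blue dashed. PNO 1, 2 and 4 climb from −0.12, −0.17 and −0.11 in the shortest group to 0.14, 0.16 and 0.10 in the longest, and PNO 3 stays between −0.02 and 0.03.

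Chaperones of the endoplasmic reticulum were mostly lower. Of 24 chaperone and unfolded protein response genes 17 were negative, 5 of them with p under 0.05, 6 without overlap, and the median was −0.15, with 15 negative, none of them at p under 0.05, and a median of −0.05 adjusted for region. Hspa5, the master chaperone BiP, measured 345, 365, 309 and 307 CPM in PNO 1 to 4 and 487, 407, 388 and 412 CPM in Saline 1 to 4, without overlap, with a log2 fold change of −0.35 ± 0.12 that was −0.05 adjusted for region. Creld2, a disulfide isomerase-like protein, measured 9.61 to 11.6 CPM against 12.4 to 16 CPM, with −0.43 unadjusted and −0.39 adjusted for region. The isomerases Pdia3 and Pdia6 were at 229 ± 8.58 and 141 ± 2.89 CPM against 274 ± 13.8 and 161 ± 7.46 (SD, n = 4 each), with −0.11 and −0.12 adjusted for region in place of −0.26 and −0.19. The heat shock proteins of cytosol and mitochondria divided 7 to 11 with a median of −0.02, and Hspe1 and Dnaja1 did not overlap between the groups, at 0.763 and 0.838 of the control mean. Adjusted for region, 12 of 18 were positive, and Hspe1 and Dnaja1 were at −0.0951 and −0.042.

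Many of these chaperone genes share an element in the promoter, and the promoters of the 2 leading members are shown for it. The ER stress element, CCAAT followed by CCACG with 9 bases of any kind between, was searched on both strands in RefSeq promoters of the GRCr8 build from 250 bases before to 50 after the start. A single window per gene was searched. It was found in 7 of the 20 promoters of the list that RefSeq gave, against 17 of the 9911 promoters of tested genes (0.172%) and 21 of all 27457 promoters (0.0765%). The match is in capitals, on the gene's strand in Hspa5 (GRCr8 chr3:38452766-38453065, plus strand) and on the other strand in Creld2 (chr7:121789134-121789433, plus strand).
Hspa5: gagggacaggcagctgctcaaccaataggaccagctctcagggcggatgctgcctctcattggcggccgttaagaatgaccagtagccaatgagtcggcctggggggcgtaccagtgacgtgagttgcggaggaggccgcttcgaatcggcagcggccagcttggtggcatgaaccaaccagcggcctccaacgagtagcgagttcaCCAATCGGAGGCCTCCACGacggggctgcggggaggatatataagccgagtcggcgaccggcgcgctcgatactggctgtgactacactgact
Creld2: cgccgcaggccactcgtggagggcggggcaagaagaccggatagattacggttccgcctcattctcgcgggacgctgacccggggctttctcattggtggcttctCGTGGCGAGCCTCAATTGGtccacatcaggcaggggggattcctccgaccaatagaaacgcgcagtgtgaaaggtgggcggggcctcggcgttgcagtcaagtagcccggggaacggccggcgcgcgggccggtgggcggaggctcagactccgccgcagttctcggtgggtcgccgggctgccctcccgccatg
The other 5 with a match were Calr, Canx, Dnajc3, Hsp90b1 and Xbp1. A match describes these letters and does not show that the element is used.

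Most members of the immune, microglia, astrocyte and myelin lists were lower before adjustment for region. Of 12 immunoproteasome and peptide-loading genes 10 were negative, with a median of −0.28. Psmb8, an inducible immunoproteasome subunit, measured 3.2, 2.38, 2.3 and 1.93 CPM in PNO and 3.56, 4.42, 3.9 and 4.55 CPM in the controls, with −0.74 unadjusted and −0.84 adjusted for region. Psmb9, its partner, measured 0.85 to 1.66 CPM against 1.97 to 2.52 CPM. Of 16 interferon-stimulated genes 14 were negative and 2 (12.5%) were lower at p under 0.05, beside 4.22% over all genes. Adjusted for region, their median was −0.12 and no member had p under 0.05. Of 16 complement and phagocytic genes 12 were negative, among them C1qa, a chain of the first complement component, at 41.7, 35.5, 41.6 and 31.1 CPM against 65.1, 57.4, 47.4 and 57.7 CPM, and Fcgr3a, an Fc receptor, at 0.729 to 1.53 CPM against 1.6 to 2.24 CPM. Homeostatic microglia genes were negative in 11 of 16 (median −0.15), and Tmem119, a microglia marker, measured 20, 22.2, 25.4 and 23.1 CPM against 30.6, 31.2, 24.9 and 34.5 CPM, with PNO 3 just above Saline 3. The medians of the immunoproteasome, complement and microglia lists adjusted for region were 0.01, 0.07 and 0.01. C1qa was then at −0.10 in place of −0.60, Fcgr3a at −0.21 in place of −0.77 and Psmb9 at −0.19 in place of −0.61, while Tmem119 was at −0.51 beside −0.42. Of 19 astrocyte genes 16 were negative, and Aldh1l1, which astrocytes express throughout the brain, measured 19, 31.6, 32.9 and 27.6 CPM against 34.3 to 41.9 CPM, with −0.45 unadjusted and −0.56 adjusted for region, where 10 of the 19 were negative. Myelin genes divided 6 to 13 with a median of −0.03 and no member at p under 0.05.

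Cholesterol synthesis, which supplies myelin and synapses, was negative in 18 of 21 genes with a median of −0.20, and −0.32 adjusted for region with 4 members at p under 0.05. Msmo1 and Nsdhl, enzymes of the late pathway, were at 118 ± 14.6 and 38.2 ± 1.53 CPM in PNO against 150 ± 23.2 and 44.6 ± 3.27 (SD, n = 4 each). Lss, lanosterol synthase, went against the list, at 32.8, 40.6, 26.6 and 31.1 CPM in PNO 1 to 4 and 23, 19.5, 19.3 and 18.8 CPM in the controls. Its log2 fold change of 0.70 was 0.29 adjusted for region, and those of Msmo1 and Nsdhl were −0.43 and −0.41.

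Of 17 core clock genes 15 were positive with a median of 0.07, and 3 (17.6%) were higher at p under 0.05, beside 6.82% over all genes. Adjusted for region, 7 were positive and the median was −0.02. Ciart, a repressor of the BMAL1 and CLOCK pair, measured 12.6, 11, 13.3 and 14.5 CPM in PNO 1 to 4 and 7.01, 7.31, 8.17 and 9.42 CPM in Saline 1 to 4, without overlap and 1.61-fold higher. The log2 fold change of 0.68 was 0.17 adjusted for region. Npas2, a partner of BMAL1, and Nr1d1, the repressor REV-ERB alpha, had 0.27 and 0.34 with overlapping groups, and 0.51 and 0.53 adjusted for region. The time of day at collection is not in the labels. The promoter of Ciart is shown because it carries 3 E-boxes, the sites of that activator pair. The letters CACGTG, which read the same on both strands, were found in 3 of 13 clock promoters (Ciart, Bhlhe40 and Bhlhe41) in 9.45% of the promoters of tested genes and in 6.65% of all promoters. The full palindromic cAMP response element, searched in the same windows for the activity genes above, was not in those of Crem or Bdnf. It was in 2 of 14 promoters of the activity list (Scg2 and Vgf), 3 of 13 of the immediate early genes (Btg2, Ier2 and Jund) and 3.2% of those of tested genes. With a single window per gene, any other start of Crem or Bdnf was not covered. Absence from these windows does not show that either gene lacks the element. The E-boxes are in capitals here (GRCr8 chr2:186112197-186112496, minus strand, written 5′ to 3′).
Ciart: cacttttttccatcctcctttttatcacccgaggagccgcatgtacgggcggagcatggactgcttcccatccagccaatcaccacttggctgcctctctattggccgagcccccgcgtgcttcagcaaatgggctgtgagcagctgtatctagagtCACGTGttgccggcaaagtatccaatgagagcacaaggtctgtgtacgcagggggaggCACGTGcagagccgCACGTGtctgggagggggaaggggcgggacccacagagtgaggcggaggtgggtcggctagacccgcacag

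Further lists of cortical genes were divided in direction. Of 20 layer transcription factors 12 were positive and 8 negative, with 2 (10%) higher at p under 0.05. Of 11 perineuronal net genes 6 were positive and 5 negative, with 2 (18.2%) higher and 1 (9.09%) lower at p under 0.05. Neurotrophins and their receptors divided 5 to 6, with 1 higher and 1 lower (9.09% each). Over all genes 6.82% were higher and 4.22% lower. Cux2 and Cux1, transcription factors of upper layer neurons, were at 64.6 to 70.2 and 65.4 to 75.6 CPM in PNO against 35 to 54.2 and 53.1 to 63.5 CPM. Their log2 fold changes of 0.50 and 0.34 were 0.57 and 0.23 adjusted for region. Acan, aggrecan of the perineuronal nets around interneurons, measured 6.96, 5.38, 6.91 and 7.12 CPM against 3.97, 3.42, 3.77 and 4.13 CPM, and the related Ncan was 1.29-fold higher, both without overlap, with 0.36 and 0.13 adjusted for region in place of 0.79 and 0.36. Ntrk3, the neurotrophin-3 receptor, was at 23.9 ± 3.39 CPM against 16.8 ± 1.7 (SD, n = 4 each), with 0.51 unadjusted and 0.11 adjusted for region. Of 16 stress axis genes 7 were positive and 9 negative. Cdkn1a, which halts the cell cycle under glucocorticoid or damage signals, measured 8.25, 11.8, 14 and 14.4 CPM against 15.5 to 18.8 CPM, with −0.54 unadjusted and −0.23 adjusted for region, and Crhbp, the binding protein of corticotropin-releasing hormone, had −0.46 unadjusted and −0.65 adjusted for region. Crabp1, a retinoic acid binding protein, was 1.95-fold higher without overlap, with 0.97 unadjusted and 0.49 adjusted for region.

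Markers of vessels, meninges, choroid plexus and blood, which a dissection could include, had few members past the unadjusted threshold. Of 13 endothelial and pericyte genes, 13 meningeal genes, 4 choroid plexus genes and 7 blood genes, only 2 blood genes (S100a8 and S100a9) had p under 0.05. Adjusted for region, 3 meningeal genes and 1 blood gene were higher at that threshold. The median log2 fold changes of these lists, in the same order, were −0.01, −0.06, −0.12 and 0.09. Adjusted for region they were 0.10, 0.38, 0.25 and 1.24. The mean log2 CPM of the meningeal list was 3.95 to 4.70 in PNO and 4.00 to 4.48 in the controls, and that of the blood list 1.98 to 3.33 and 1.71 to 3.97. Of 7 markers of neuroblasts that migrate to the bulb 6 were positive and 3 had p under 0.05, such as Dcx, doublecortin, at 64.6, 24.9, 54.8 and 63.8 CPM against 21.6 to 27.2 CPM, high in the 3 libraries with raised bulb markers and at −0.18 adjusted for region.

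Many of the largest fold changes came from rows that overlap another gene on the same strand, which cannot be read alone as a difference in 1 gene. Of all tested genes 8.32% overlap such a gene, against 10 of 24 (41.7%) with p under 0.05 and an absolute log2 fold change of at least 2. Ddah2, which breaks down an inhibitor of nitric oxide synthase (20:3761465-3764511 in the deposited table, whose build is not given in the sources used here), had the smallest p of the lower genes. It measured 4.86, 2.9, 2.6 and 1.44 CPM in PNO 1 to 4 and 11.2, 9.02, 6.85 and 7.43 CPM in the controls, a log2 fold change of −1.55. The sum with Clic1, whose row covers it, was 46.2 ± 4.79 CPM against 60.3 ± 8.08, and the groups of sums overlapped. For Tmbim4, an anti-apoptotic membrane protein (7:55718699-55742773), the sum with Llph still lay apart, at 29.9 to 33.5 CPM in PNO and 36.9 to 43.4 CPM in the controls.

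**Figure D5:**
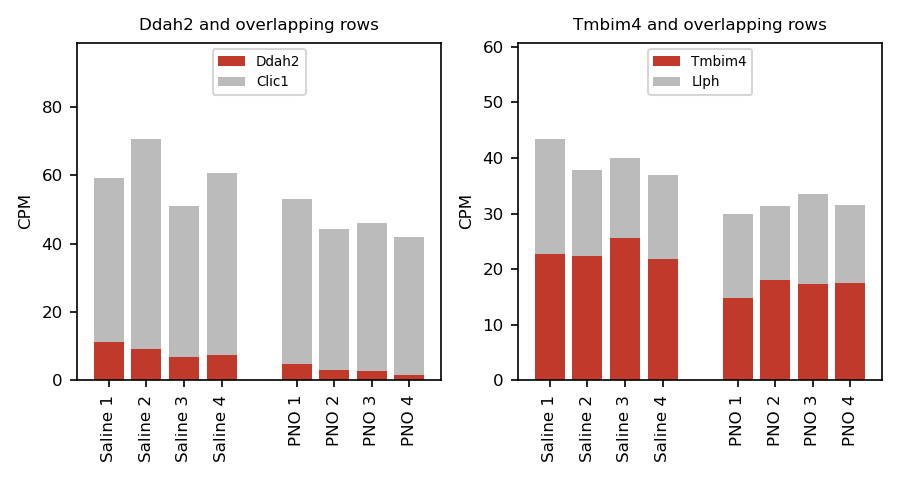
CPM of Ddah2 and Tmbim4 (red) stacked on the summed CPM of the rows that overlap them on the same strand (grey), 1 bar per Saline and PNO library. The red part differs between the groups while the full height overlaps for Ddah2, and for Tmbim4 every PNO bar is lower than every Saline bar.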

How the data were processed

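Polyadenylated RNA of the prefrontal cortex was sequenced from stranded libraries, per the labels' protocols. The deposited table holds whole-number read counts and FPKM values per gene for 12 libraries, made by the authors. HISAT2 and StringTie are named in the submitters' processing notes. Their versions, the genome build and the annotation were not found in any label or header. Groups were taken from the sample titles. Genes whose FPKM averaged 0.5 or more were tested on the deposited counts with edgeR 4.0.16 (R 4.3.3; TMM factors, quasi-likelihood test, 3 groups in one model, Benjamini-Hochberg adjustment, threshold 0.05). The SE is the log2 fold change divided by the square root of F. Marker means use log2 CPM with a prior count of 2, and a library was called raised at more than 0.5 above the median of the 12. Length is the one that counts and FPKM imply.

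Alternatives were DESeq2 1.42.0, limma 3.58.1 on log2(FPKM + 0.5) and on counts with sample weights, a fit of 8 libraries, other filters and size factors, a replicate block, region covariates, a length correction and leaving out libraries. On simulated counts with 200 of 14170 genes changed by a log2 of 1, the edgeR fit recovered 183 with 11 false calls. The changed genes were drawn from those above a CPM floor, and spread followed the trend over genes, with no region or litter differences. The recovery therefore checks the fit and does not give its power in the real libraries. Genes were named by rule: the 15 smallest p in each direction, the calls of the 8-library fit, up to 4 members with the smallest p in each list, and all opioid and marker genes. Not every gene so named is described, and a few are not reported here. Genes and lists were chosen with earlier results of these data known. Counting error is small beside animal spread at 57887813 counts or more, except in genes of a few counts.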

Additional observations from a re-analysis of the deposited data

Results flagged for a closer look

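In 23 of 248 sets of 4 values, 1 library stood apart from the other 3 of its group by Dixon's criterion, which chance gives in about 1 of 20. PNO 2 stood apart in the striatal marker mean at 6.65 log2 CPM, and Saline 2 at 4.94. Members of that marker list followed, with Penk at 381 CPM in PNO 2 and 145 in Saline 2, Drd2 at 75.8 and 15.9, Adora2a at 129 and 34.4, and Pdyn at 79.2 in PNO 2. PNO 2 was also apart in the bulb marker mean, at 2.00, because the other 3 PNO libraries were raised.

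Other genes in which PNO 2 lay apart were Rgs8 at 67.9 CPM, Dlx6 at 9.61, Dnmt3a at 8.88 and Ncan at 71.9 on the high side, and Fam184a at 23.7, Meis2 at 130, Acan at 5.38 and the immunoproteasome gene Psmb9 at 0.85 on the low side. PNO 3 was high in Grm4 at 54.8 CPM, and PNO 1 in Dnaja1 at 215 CPM. Among the controls, Saline 4 was high in Bdnf at 36.1 CPM, and Saline 3 was low in Cbln1 at 5.29 and Ndufc2 at 88.3 CPM. The part of region RNA in these values was not tested.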

How the results depend on the processing

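The edgeR fit of 12 libraries called 0 genes. The fit of 8 libraries called 11, DESeq2 117, limma with sample weights 32, limma on log2(FPKM + 0.5), with 0.1 or with 1 in place of 0.5, 1 each, the fit without libraries with raised bulb markers 3, and 2 settings added after seeing the data, DESeq2 with region covariates 10 (several with log2 values too extreme to read) and 8 libraries with the length trend removed 24. Leaving out 1 library at a time gave 0 to 1 calls, the 1 without Saline 2. Against 966 genes higher at an unadjusted p under 0.05, region covariates gave 306 with edgeR and 321 with DESeq2, leaving out raised striatal libraries 579, raised bulb libraries 643, and 1 library at a time 655 to 900. Against 598 lower, these gave 225, 276, 366, 343 and 420 to 653, and 8 libraries gave 1039, sample weights 1122.

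Same-numbered PNO and Saline libraries deviated together with r of 0.062, 0.120, 0.054 and 0.095. PNO 1, 2 and 4 correlated best with the control of the same number, and PNO 3 with Saline 4. The labels do not say whether same-numbered libraries share more than the number, and this was not tested. With a replicate block 0 genes were called, 1113 higher and 667 lower at unadjusted p under 0.05 in 12 libraries, and 1078 lower with the block in 8.

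Of 122 genes 105 kept their sign in every setting run and 17 did not. With region covariates the log2 fold change turned for Slc32a1 (−0.0693 in edgeR and −0.0717 in DESeq2), Slc6a11 (−0.48 and −0.50), Dlx5 (−0.14 and −0.15), Grm4 (−0.11 and −0.11), Synpr (−0.30 and −0.30), Cacna1d (−0.0698 and −0.0723), Pdyn (−0.0554 and −0.0563), Pnoc (0.21 and 0.21), Gng4 (−0.62 and −0.65), Drd2 (−0.19 and −0.19), Dnmt3a (−0.14 and −0.13), Cdhr1 (−0.75 and −0.76) and Adora2a (−0.84 and −0.84). Pdyn, Drd2, Adora2a and Cdhr1 are themselves members of the marker lists behind those covariates. Sample weights gave Pdyn −0.0209 and Adora2a −0.26. Without raised striatal libraries Pdyn was −0.22 and Adora2a −0.27, and without raised bulb libraries Calb2 was −0.24, Oprl1 0.0491 and Tbx21 −0.18. Leaving out 1 library, Pdyn ranged from −0.33 to 0.63, Drd2 from −0.0932 to 2.33 and Adora2a from −1.07 to 2.12, all lowest without PNO 2, and Oprd1 from −0.0302 (without PNO 3) to 0.51. List medians changed sign for 27 of 61 lists with region covariates, 8 without raised bulb and 6 without raised striatal libraries. The cause of these shifts was not tested.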

Other observations

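Toll-like receptor, NF-kB and cytokine genes were negative in 10 of 16 and oligodendrocyte precursor genes positive in 8 of 15, with no member at p under 0.05. Endocannabinoid genes (5 of 9 positive) and circadian output factors (6 of 9 positive) had none either, and adenylate cyclases were positive in 7 of 8 with a median log2 fold change of 0.13. Retinoid handling genes were divided 10 to 11, with 1 (4.76%) higher and 4 (19%) lower at p under 0.05, beside 6.82% and 4.22% over all genes. Among these Retsat, retinol saturase, measured 36.7, 50.9, 90.6 and 45.2 CPM in PNO 1 to 4 and 84 to 91 CPM in the controls, with PNO 3 in the range of the controls. Genes of nitric oxide control were positive in 10 of 14, with 3 (21.4%) higher and 1 (7.14%) lower at p under 0.05. Adjusted for region, no nitric oxide gene was higher and 1 was lower, and 1 retinoid gene was higher and none lower.

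Long noncoding RNAs had a median log2 fold change of −0.07 over 595 tested, with 18 higher and 46 lower at p under 0.05. RT1-CE16, a class I histocompatibility gene chosen after its values were seen, measured 6.41, 14.5, 37.2 and 36.7 CPM in PNO 1 to 4 and 4.31, 2.55, 2.12 and 4.62 CPM in the controls. Reads of such genes can be split among near-identical copies, so the row is uncertain. The groups did not overlap, and PNO libraries differed among themselves by more than the controls. ENSRNOG00000069961 measured 29.3, 1.13, 0.822 and 0.627 CPM in PNO 1 to 4 and 39.2, 31.2, 41 and 29.7 CPM in the controls, with PNO 1 just below the lowest control.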
